A study of Canis lupus familiaris with 6 samples.

Results

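cfa-miR-21, the canine miR-21, was followed through a set of 6 Agilent miRNA arrays of canine mammary cancer cells. It was taken by its gene name in the scanner files, which makes it 1 of the 289 canine miRNAs on the array. Each array carries it as 2 probes with 20 spots each, 40 of the 11560 spots that are not controls. The cells came from 3 lines named CMT-U27, CMT-U309 and P114, all grown in the same RPMI-1640 medium with serum. Antibody against stem cell antigen 1 (Sca1), a surface protein, was used to sort each line into a Sca1+ fraction, which the labels call cancer stem cells, and a Sca1- fraction, which the labels call the control. There was 1 sample of each fraction per line, so 3 Sca1+ and 3 Sca1- samples in all, and no condition of line and fraction had a second sample. The sample descriptions speak of growth with macrophages for both P114 samples and of mono-culture for the others, while titles and sources do not mention macrophages. Nothing in the labels says that replicates were separate cultures, so the p-values cover only the spread among these samples, which may in part be technical.

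miR-21 is a small RNA that guides Argonaute proteins to messenger RNAs whose 3′ untranslated regions pair with its seed, bases 2 to 8 of the mature strand. A known target in human cells is PDCD4, an inhibitor of translation, and the miR-21 gene is induced by STAT3 and AP-1. It is abundant in many cultured cells, and in mammary tumours it is known as a miRNA that favours growth and invasion.

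The array reads miR-21 through 2 nested probes, shown here because every value below comes from them. The capital marks the base that the longer probe has and the shorter one lacks. The last line is the reverse complement of the longer probe, as RNA, which is the stretch of miR-21 that this probe reads.
A_38_P00002367: tcaacatcagtctgataag
A_38_P00002368: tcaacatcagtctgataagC
miR-21 stretch: Gcuuaucagacugauguuga
The files map the shorter probe to chr9:37662769-37662786 and the longer probe to chr9:37662768-37662786 of canFam2, spans of 18 and 19 bases for probes of 19 and 20 bases. In the RefSeq gene table of another dog assembly (UU_Cfam_GSD_1.0), MIR21 also lies on chromosome 9, between the listed protein-coding genes PTRH2 and TUBD1. The longest run of bases that the longer probe shared with any of the 654 probes of the other 288 miRNAs was 8, found for miR-340 (53.97 intensity units on 1 array, B1 below, and not detected on the other 5). The last 6 bases of the longer probe pair with part of the seed and also occur in probes of miR-20a and miR-454. The probes of miR-590, a miRNA whose human 5p arm shares the miR-21 seed, do not hold them, and miR-590 was detected on no array.

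The arrays have to be named before any value is read, because the deposited value table and the scanner files assign them to samples differently. Of the 6 columns of the table, 2 equalled the scanner file of the same sample and 4 equalled that of another sample. For the main comparisons both assignments are given, as the scanner-file reading and the value-table reading. The sources used here do not settle which is right. The arrays also differed in brightness, so those with over 50 miRNAs that the scanner software flagged as detected are called B1, B2 and B3 and those with fewer D1, D2 and D3. B1, B2 and B3 detected 111, 91 and 89 miRNAs, while D1, D2 and D3 detected 39, 22 and 9. In the scanner-file reading CMT-U27 has D1 as its Sca1+ and D2 as its Sca1- array, CMT-U309 has B1 and B2 in that order, and P114 has D3 and B3. In the value-table reading CMT-U27 has D1 as its Sca1+ and B2 as its Sca1- array, CMT-U309 has D2 and D3, and P114 has B1 and B3. Both readings thus give 4 arrays the same fraction, with Sca1+ for D1 and B1 and Sca1- for B2 and B3. All arrays shared 1 slide and 1 scan date. By value table the Sca1+ arrays filled one slide row and the Sca1- arrays the other, and each line had a slide column of its own. In that reading fraction and slide row cannot be told apart, and neither can line and slide column. On D1, B1, B2 and B3 alone, fraction and slide row cannot be told apart in either reading.

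miR-21 was detected on every array. All 240 of its spots were well above background by the scanner's flag, none was saturated, and 9 were flagged as outliers. On the longer probe the median spot had a processed intensity of 292.5 on D1, 8064 on B1 and 28.2 on D3, the Sca1+ arrays by scanner file, against 52.5 on D2, 14342 on B2 and 14222 on B3. The spread over the 20 spots of that probe was a coefficient of variation of 4.54% on D1, 9.32% on B1, 12.03% on D3, 11.6% on D2, 7.17% on B2 and 15.7% on B3. The medians of B2 and B3 lay closer together than the spots within either array, while the medians of the other arrays lay apart. The lowest spot of D2, at 37.6, stood just above the highest of D3, at 36.5, and the dimmest spot of B3 fell below the lowest of B1, at 6911. The widest spread was on B3, where the dimmest spot of the longer probe stood at 6275 and the brightest at 16446, a 2.62-fold range. On D2 the shorter probe came nearest to background, with spots between 27.99 and 39.7 where the brightest negative-control spot had 29.4.

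Both probes put the arrays in the same order, from B2 at the top through B3, B1, D1 and D2 to D3. The mean of the longer probe was 1.48-fold that of the shorter one on D1, 1.54-fold on B1, 1.68-fold on D3, 1.55-fold on D2, 1.53-fold on B2 and 1.60-fold on B3, a mean of 1.56 ± 0.0695 (SD, n = 6 arrays). The ratio stayed within this narrow range although the longer probe itself ran from a mean of 29.2 on D3 to 14456 on B2.

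**Figure D1:**
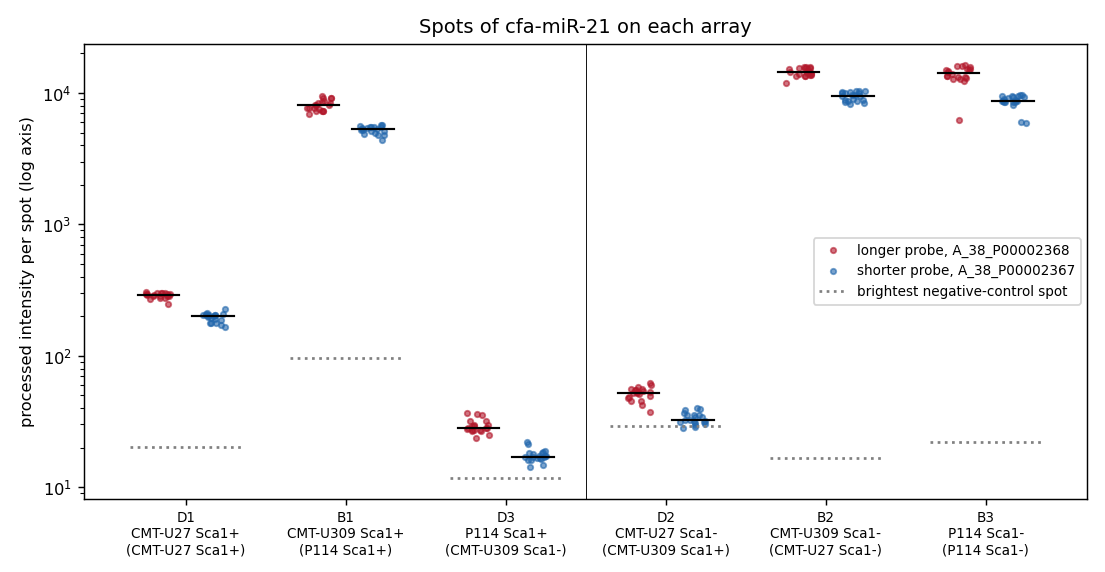
Each point is 1 spot of cfa-miR-21 (processed intensity, log axis), with the longer probe in red, the shorter probe in blue and a black bar at the median of the 20 spots and a dotted line at the brightest negative-control spot of the array. Arrays are labelled with the scanner-file reading and, in brackets, the value-table reading, Sca1+ arrays by scanner file left of the line. The spots of each probe form tight groups, from 28.2 on D3 to 14342 on B2 for the median of the longer probe.

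The total gene signal, which the scanner software sums over the probes of a miRNA, was 646.3 ± 46.9 intensity units on D1, 18172 ± 1317 on B1 and 60.3 ± 6.23 on D3, against 112.9 ± 9.58 on D2, 32139 ± 2328 on B2 and 31945 ± 2324 on B3 (± the software's own error, 1 array each). The highest and the lowest array differed 533-fold, the 3 dim arrays 10.72-fold and the 3 bright arrays 1.77-fold. miR-21 followed the brightness of the array, and its lowest value on a bright array lay far above its highest on a dim one. In bulk RNA, fewer cells and less miR-21 per cell cannot be told apart, and neither can a smaller amount of labelled RNA.

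Control features on the same arrays were read beside miR-21. The features named dmr_3 and dmr_6 were nearly flat, with medians between 12885 and 15310 for dmr_3 (1.19-fold) and between 12943 and 13753 for dmr_6 (1.06-fold). The features named dmr_285 and dmr_31a were not flat, with medians between 809.4 and 3158 (3.90-fold) and between 184.4 and 985.9 (5.35-fold). The features named hur_1, hur_2, hur_4 and hur_6 moved with miR-21. hur_2, for instance, had 28685 on D1, 141960 on B1 and 1269 on D3, against 4251 on D2, 68229 on B2 and 80638 on B3. On B1 all 4 of these hur features were brighter than on B2 and B3, whereas miR-21 was dimmer on B1 than on B2 and B3. The files do not state what these control features are, and their part in the miR-21 signal was not tested.

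**Figure D2:**
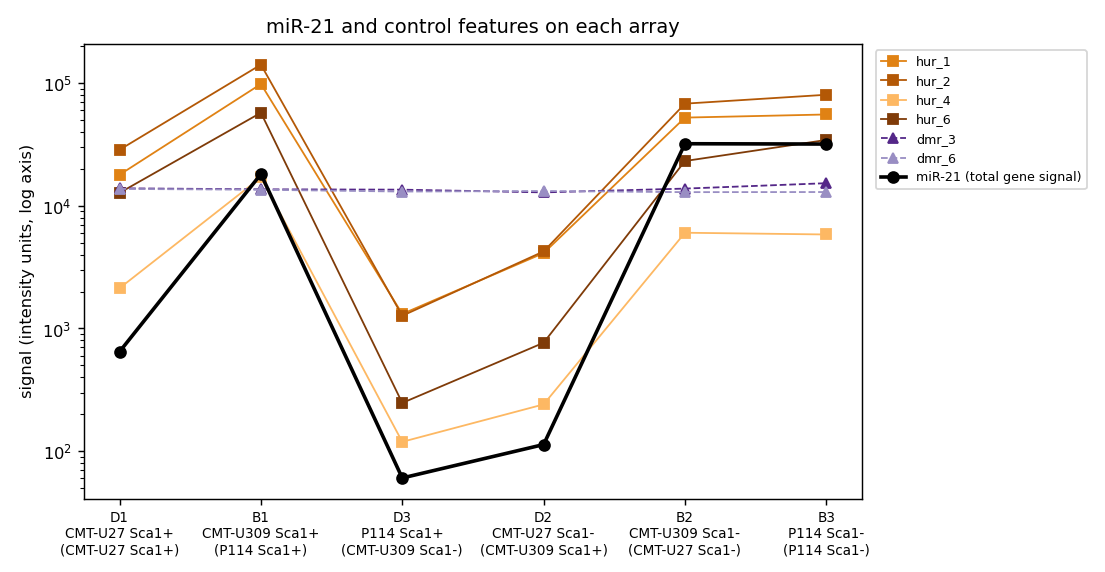
Total gene signal of miR-21 (black) and the median processed intensity of control features on each array, on a log axis, with array labels by scanner file and, in brackets, by value table. dmr_3 and dmr_6 stay level across arrays, while the hur features and miR-21 are lowest on D3 and D2, and B1 has the highest hur signals but not the highest miR-21 signal. Lines only join values of one feature.

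Within an array, miR-21 was at or near the top. It ranked 1 of 39 detected miRNAs on D1, 1 of 111 on B1 and 2 of 9 on D3, against 3 of 22 on D2, 1 of 91 on B2 and 1 of 89 on B3. The miRNAs above it were miR-494 (512.7) and miR-489 (132.8) on D2 and miR-223 (61.2) on D3, where miR-21 had 60.3. The next brightest were let-7a, miR-23a and let-7f on B1, miR-23a, let-7a and miR-27a on B2 and B3, and miR-494, miR-23a and miR-29b on D1. Signals of different miRNAs also depend on their probes, so a rank is a description of the array and not a count of molecules.

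The share of the summed signal of all detected miRNAs needs no scaling between arrays. It is still not free of array brightness, since weak and nearly constant signals fill more of the sum on a dim array. For instance, miR-223, between 59.6 and 80.9 on every array, made up 19.2% on D3 and 0.10% on B1. miR-494 made up 40.2% on D2. miR-21 made up 20.0% on D1, 26.2% on B1 and 18.9% on D3, against 8.85% on D2, 45.4% on B2 and 45.5% on B3. The Sca1+ arrays by scanner file lay close together in this share, and the Sca1- arrays held both the lowest and the highest shares. The mean share was 21.7 ± 3.96% in Sca1+ and 33.3 ± 21.1% in Sca1- cells (SD, n = 3 each). Within lines, Sca1+ minus Sca1- was 11.2 percentage points in CMT-U27, -19.2 in CMT-U309 and -26.7 in P114, a mean of -11.6 ± 20.0 (SD, n = 3 pairs; exact permutation test by sign flips, two-sided p = 0.5, where 3 pairs cannot go below 0.25). The difference was smaller than its spread between lines. Without P114 the mean was -4.0 points, and without CMT-U27 it was -22.9. As a share of only the miRNAs detected on all arrays, the Sca1+ arrays lay apart, at 38.7% on D1, 50.1% on B1 and 18.9% on D3. There the differences by scanner file were 26.6 points in CMT-U27, -21.4 in CMT-U309 and -49.6 in P114 (exact permutation p = 0.75). By value table they were -32.8, -6.74 and -18.4 in the same order.

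By value table the share was lower in Sca1+ than in Sca1- cells in each of the 3 lines. The differences were -25.4 percentage points in CMT-U27, -10.0 in CMT-U309 and -19.3 in P114, a mean of -18.2 ± 7.74 (SD, n = 3 pairs; exact permutation p = 0.25, two-sided, the smallest that 3 pairs allow). The group means were 18.4 ± 8.81% in Sca1+ and 36.6 ± 15.4% in Sca1- cells (SD, n = 3 each).

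On the 4 arrays whose fraction is the same in both readings, the groups did not overlap. The Sca1+ arrays D1 and B1 had shares of 20.0% and 26.2%, against 45.4% and 45.5% on the Sca1- arrays B2 and B3, a mean difference of -22.3 percentage points (exact permutation p = 0.333, two-sided, the smallest that 2 against 2 arrays allow). Of the 9 miRNAs detected on all 6 arrays, 1, or 11.1%, lay wholly lower in Sca1+ on these arrays, and it was miR-21. D1 alone detected 39 miRNAs, and those beyond the 9 were not compared here. With 2 arrays per fraction, 1 of 9 does not set miR-21 apart. miR-494 lay wholly higher, at 12.6% and 3.93% on D1 and B1 against 1.08% and 2.03% on B2 and B3, and the other 7 overlapped. Over the 9 miRNAs detected on all arrays alone, miR-21 made up 38.7% on D1 and 50.1% on B1, against 71.5% on B2 and 68.5% on B3, again without overlap. D1 is a dim array and carries its line label in both readings, whereas B1 is CMT-U309 in one reading and P114 in the other. D1 and B1 also lay in a different slide row from B2 and B3, so fraction and slide row cannot be told apart here.

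**Figure D3:**
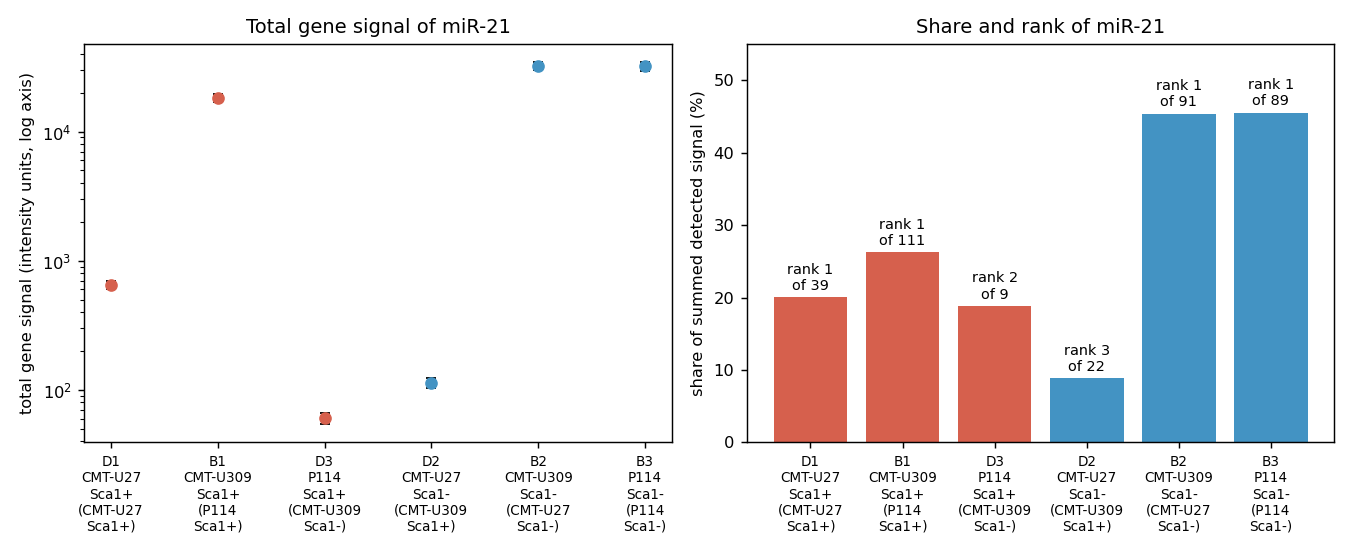
Left, total gene signal of miR-21 on each array (log axis, error bars are the scanner software's error). Right, miR-21 as a share of the summed signal of detected miRNAs in percent, with its rank above each bar. Sca1+ arrays by scanner file are red and Sca1- arrays blue, and labels in brackets give the value-table reading. The shares on B2 and B3 are 45.4% and 45.5%, and every other array is at or below 26.2%.

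To compare levels, processed intensities were scaled by the 75th percentile of the 10 probes that were well above background on all arrays, and log2 values were tested with limma with the line as a term. 2 of these 10 probes are those of miR-21 itself, so part of its own variation goes into the scaling. Scaled log2 values of miR-21 were 8.89 on D1, 10.28 on B1 and 8.404 on D3, against 8.26 on D2, 11.81 on B2 and 11.64 on B3. Scaled without its own probes they were 9.41, 10.33 and 7.63 on D1, B1 and D3, against 7.62, 12.45 and 11.84 on D2, B2 and B3. Either way B2 and B3 were highest and the values of the fractions overlapped by scanner file.

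With this scaling miR-21 did not pass between Sca1+ and Sca1- cells in either reading. By scanner file the log2 difference was 0.63 in CMT-U27, -1.54 in CMT-U309 and -3.23 in P114. The mean was -1.38 (SE 1.77, 95% interval -5.76 to 3.0, limma adjusted p = 0.995, n = 3 pairs, lower in 2 of 3), smaller than the SD of 1.94 between lines. The 80 tested miRNAs had a median of -0.81, 26 of them had a lower difference than miR-21, and 0 of 80 passed (0%; 0 at an unadjusted p under 0.05). By value table the differences were -2.92 in CMT-U27, -0.14 in CMT-U309 and -1.36 in P114, with a mean of -1.48 (SE 0.97, 95% interval -4.03 to 1.08, limma adjusted p = 0.792, lower in 3 of 3), close to the SD of 1.39 between lines. There, too, 0 of 80 miRNAs passed (0%), with 3 at an unadjusted p under 0.05 and a median of -0.56 over all 80. The intervals take in both a large fall and a rise of miR-21, so these samples do not show that the fractions are alike in miR-21. Quantile scaling gave a mean of 0.52 by scanner file, the opposite direction. The longer miR-21 probe was the brightest probe on every array but D2, where it ranked 3. Quantile scaling therefore gives it the same value on all arrays except D2, and this mean rests on D2 alone.

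Scaling by the 4 hur control features, a choice made after these data were seen, put miR-21 lower in Sca1+ cells in every line in both readings. By scanner file the differences were -0.50 in CMT-U27, -2.03 in CMT-U309 and -2.97 in P114, a mean of -1.83 (SE 1.42, limma adjusted p = 0.854). By value table they were -4.35 in CMT-U27, -0.66 in CMT-U309 and -1.81 in P114, a mean of -2.28 (SE 1.43, adjusted p = 0.659 with limma). Neither passed, and the median of all 80 tested miRNAs shifted down as well under this scaling, to -1.27 by scanner file and -1.36 by value table. Scaling by dmr_3 and dmr_6, chosen after the data were seen and as the flat ones among the dmr features, gave both signs in each reading. By scanner file the differences were 2.37 in CMT-U27, -0.87 in CMT-U309 and -8.83 in P114, and by value table they were -5.74 in CMT-U27, 0.84 in CMT-U309 and -0.75 in P114.

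**Figure D4:**
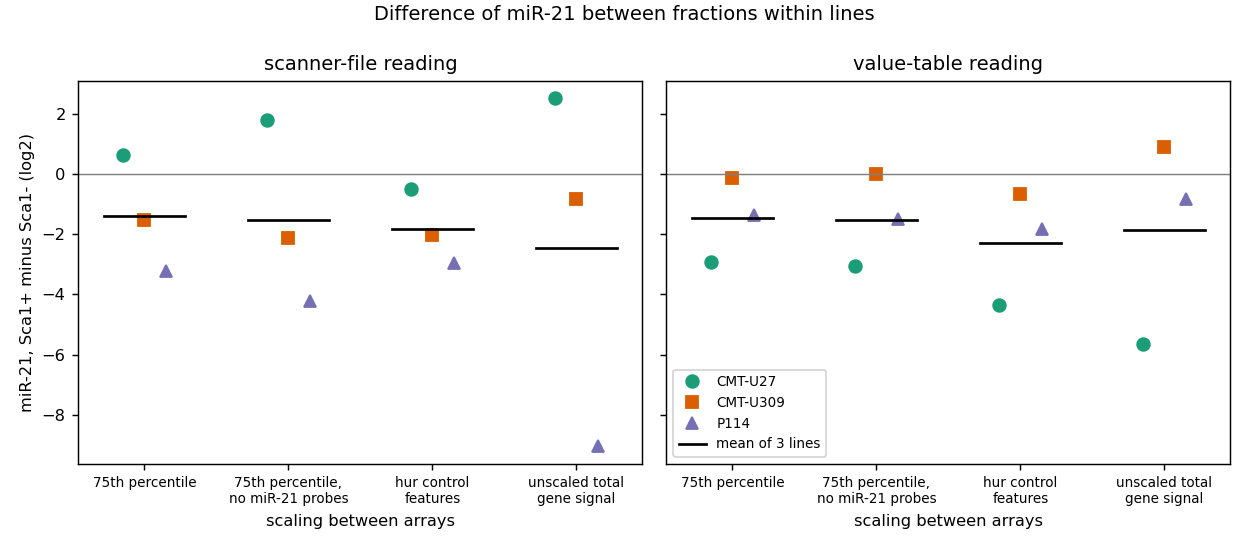
Difference of miR-21 between Sca1+ and Sca1- (log2) within each line under 4 scalings, by scanner file on the left and by value table on the right; the black bar is the mean of the 3 lines. With the 75th percentile by scanner file the lines run from 0.63 in CMT-U27 to -3.23 in P114, and with the hur control features every line is below 0 in both readings.

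The comparison was repeated on the bright arrays alone, B1 (Sca1+) against B2 and B3 (Sca1-), whose fractions are undisputed. miR-21 was 2.22-fold lower on B1, a log2 difference of -1.15 (SE 0.32, 95% interval -2.12 to -0.18). It did not pass over the 90 tested miRNAs (limma adjusted p = 0.158, n = 1 and 2), of which 4 passed (4.44%). The median over all 90 was 0.18, and 10 of them had a lower difference than miR-21. Against B2 alone, of the same line by scanner file, the difference was -0.98, and against B3 alone, of the same line by value table, it was -1.33. B1 is the only Sca1+ array here and has no spread of its own, so every p of this fit rests on the spread between B2 and B3, which are of different lines in both readings, and assumes that B1 varies alike. The call depended on the scaling. Of 14 alternatives, the 2 that left out B2 or B3 had no test. miR-21 passed in 3 of the other 12. By the hur features, chosen after the data were seen, the difference was -1.92, with a median of -0.59 over all 90 miRNAs. It was -1.32 without the 2 miR-21 probes among the 122 scaling probes. With normexp background it was -1.55, in a fit where most tested miRNAs passed. Under the other settings tested miR-21 did not pass, for instance at -0.81 by dmr_3 and dmr_6 and at -1.61 with scaling over all probes. Under quantile scaling the difference was 0 by construction, since the longer miR-21 probe was the brightest probe on each bright array. With 1 Sca1+ array, the fraction cannot be told apart from anything else that is particular to that sample. That includes the slide row, since B1 lay in a different row from B2 and B3.

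Markers of cell type also differed between B1 and the other bright arrays. Of 7 epithelial miRNAs, 5 were detected on B1 with a summed signal of 5129, against 1 on B2 (28.9) and 0 on B3, and the brightest on B1 were miR-141 (2839) and miR-200c (1427), which hold down the ZEB factors. Of 6 mesenchymal miRNAs on the array, 2 were detected on B1 with a sum of 134.3, against 3 on B2 (717.5) and 3 on B3 (672.9), with miR-140 at 19.9 on B1 and 390.4 and 430.2 on B2 and B3. miR-199 was undetected on B1 and had 244.9 on B2 and 193.0 on B3, whereas miR-10b went the other way, with 114.4 on B1 against 82.2 on B2 and 49.7 on B3. The mesenchymal miR-143, miR-145 and miR-214 were detected on no array. Of 7 leukocyte and macrophage miRNAs, 4 were detected on B1 with a sum of 1132, against 2 on B2 (219.5) and 3 on B3 (181.6), and miR-142, a defining miRNA of blood cells, was detected nowhere. Of 2 erythroid miRNAs, miR-451 was seen on D2 and B2 alone, at 39.4 and 18.1, and the endothelial miR-126 was not detected on any array. Their part in the lower miR-21 of B1 was not tested. On the dim arrays epithelial and mesenchymal miRNAs were almost all undetected (1 epithelial and 0 mesenchymal), so an epithelial origin could be checked on the bright arrays only. There B1 had miR-141, miR-200c, miR-203, miR-429 and miR-205, while miR-141 on B2, at 28.9, was the only one detected on B2 or B3. The epithelial miR-200a and miR-200b were detected on no array, B1 included.

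The lines gave no stable order of miR-21. By scanner file, scaled log2 values averaged 11.05 ± 1.09 in CMT-U309, 10.02 ± 2.28 in P114 and 8.58 ± 0.45 in CMT-U27 (SD, n = 2 each). By value table the order was P114 at 10.96 ± 0.96, CMT-U27 at 10.35 ± 2.07 and CMT-U309 at 8.33 ± 0.10. Neighbours in either order overlapped within their SD. The samples of CMT-U27 and CMT-U309 did not overlap by value table, while those of the other neighbours did. CMT-U309 over CMT-U27 was 2.47 (SE 2.17, adjusted p = 0.692) by scanner file and -2.02 (SE 1.18, adjusted p = 0.268) by value table with limma. P114 over CMT-U309 was -1.03 (SE 2.17, limma adjusted p = 0.845) by scanner file and 2.62 (SE 1.18, adjusted p = 0.161) by value table. P114 over CMT-U27 was 1.44 (SE 2.17, limma adjusted p = 0.994) by scanner file and 0.60 (SE 1.18, adjusted p = 0.984) by value table, above 0 in both readings, although it was -0.064 by scanner file without D2. None of the 3 pairs passed in either reading. These 3 comparisons share samples pairwise.

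As background, by scanner file 0 of 80 miRNAs passed in each pair of lines (0%), with 9 at an unadjusted p under 0.05 for CMT-U309 over CMT-U27 and 0 for the other pairs. By value table, calls numbered 14 of 80 for CMT-U309 over CMT-U27 (17.5%), 24 of 80 for P114 over CMT-U309 (30%) and 0 of 80 for P114 over CMT-U27 (0%), and miR-21 was not among them. Both CMT-U309 arrays are dim in the value-table reading, as are both CMT-U27 arrays in the other. By value table each line also had its own slide column. miR-223, a myeloid miRNA, was flat beside this, between 59.6 and 80.9 on all 6 arrays, whereas miR-155, induced in activated leukocytes, was detected on the bright arrays alone.

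The pattern of miR-21 over the 6 arrays was set against the other 8 miRNAs detected on all of them, with values scaled without the miR-21 probes. The most alike were miR-23a (Pearson r = 0.98), let-7f (r = 0.98) and let-7a (r = 0.97), the let-7 miRNAs being known repressors of RAS genes, and the least alike was miR-223 (r = -0.82). These are descriptions over 6 arrays that share 1 scaling, and the brightness of the arrays enters every one of them. By unscaled total gene signal miR-223 had r = 0.89 with miR-21, so its negative sign arises with the scaling. The lowest unscaled r was 0.81, for miR-494. miR-23a had 231.9 on D1, 4516 on B1 and 14.6 on D3, against 46.9 on D2, 4837 on B2 and 5470 on B3. Total signals ran over a 374-fold range for miR-23a, 273-fold for let-7f and 159-fold for let-7a, against 533-fold for miR-21 and 1.36-fold for miR-223.

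The ratio of miR-21 to miR-23a was highest on the Sca1- arrays B2 and B3. On the log2 scale the ratio of the miR-21 signal to that of miR-23a was 1.48 on D1, 2.01 on B1 and 2.04 on D3, against 1.27 on D2, 2.73 on B2 and 2.55 on B3. By value table this ratio was lower in Sca1+ cells in all 3 lines, with differences of -1.25 in CMT-U27, -0.78 in CMT-U309 and -0.54 in P114. By scanner file the differences were 0.21 in CMT-U27, -0.72 in CMT-U309 and -0.50 in P114. Against the other 7 miRNAs the ratio of miR-21 was lower in Sca1+ in all 3 lines for 2 more by value table, let-7b and miR-494, and for none of the 8 by scanner file. The ratios share the miR-21 signal and are not independent of each other.

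**Figure D5:**
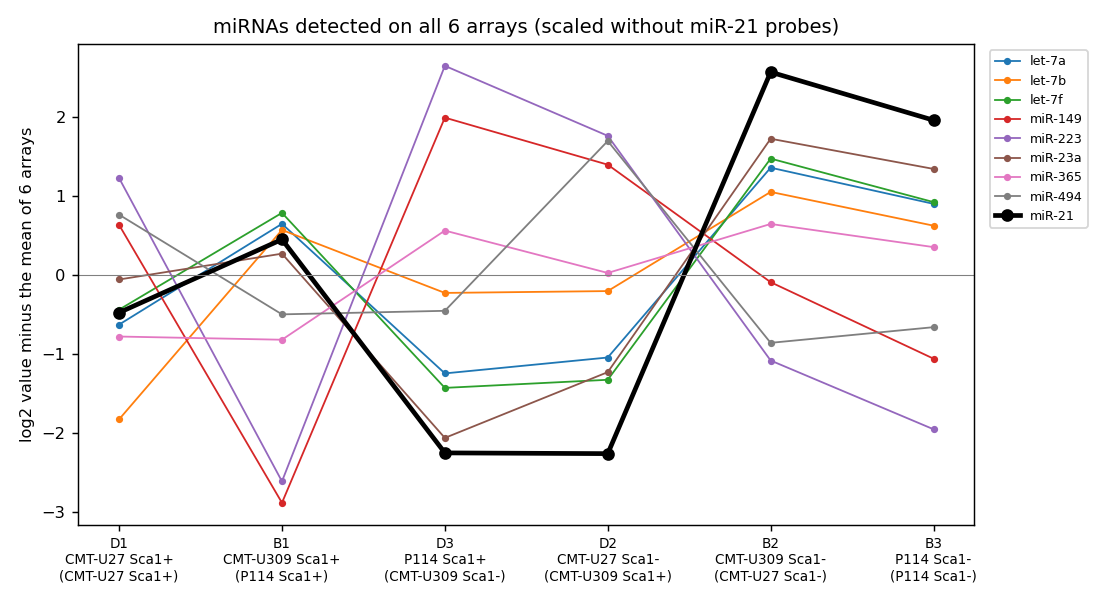
Log2 values of the 9 miRNAs detected on every array, scaled without the miR-21 probes and centred on each miRNA's mean over 6 arrays, with miR-21 as the thick black line. miR-21, miR-23a, let-7a and let-7f are lowest on D2 and D3 and highest on B2 and B3, while miR-223, whose unscaled signal is flat, is highest on D3 and D2. Arrays are labelled by scanner file and, in brackets, by value table.

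A pair of lists of miRNAs named together with miR-21 in mammary cancer were read beside it. Of 20 other miRNAs on the array that are reported as raised in mammary tumours, 19 were detected on at least 1 array and 18 were tested. By scanner file 0 of the 18 passed for Sca1+ over Sca1-, 17 had values below 0 and their median was -0.82, beside -0.81 over all 80 tested. The brightest were miR-27a (-1.11), miR-20a (-0.27), miR-19a (-1.55) and miR-221 (-0.87), a miRNA that represses the cell-cycle inhibitor p27. Of 25 miRNAs reported as tumour suppressors, 18 were detected and 13 tested, and 0 passed by scanner file. Of the 13, 12 had values below 0 and the median was -0.68. Among them let-7a had -0.68, let-7f -0.58, let-7b -0.85 and miR-29b -0.56. In the value-table reading the median was -0.39 for the raised miRNAs and -0.63 for the suppressors, beside -0.56 over all 80 tested. None of either list passed in that reading. Which list had the lower median thus depended on the reading. How many of all 80 lay below 0 was not counted, so 17 of 18 and 12 of 13 lack a background count. On D2 and D3 only 1 and 0 of the 20 raised miRNAs, and 6 and 3 of the 25 suppressors, were detected, so most of these differences rest in part on values at background. On the bright arrays the medians were 0.38 for 18 raised miRNAs, of which 0 passed, and 0.08 for 16 suppressors, of which 1 passed (miR-34a, named after its value was seen, at -3.70 with limma adjusted p = 0.0160), beside -1.15 for miR-21. Over all 90 miRNAs 4.44% passed in that fit, with its single Sca1+ array, so 1 of 16 and 0 of 18 are near the background.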

How the data were processed

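The authors deposited scanner files with spot intensity in 1 green channel (the labels name Cy5) and probe positions on canFam2. The software was Agilent Feature Extraction, with 10.10.1.1 named in the file headers and 10.7.3.1 in the submitters' processing notes. Per the file headers, spatial detrending was on and a separate background correction off, with the background method given only as a code, and nothing there scales one array to another. Undetected miRNAs have a deposited total gene signal of 0.1. Every column of the deposited intensity table equalled that total signal in exactly one scanner file (relative tolerance 1e-04, 311 features). Flags of 0 or 1 come with each spot.

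Values not above 0 took the array's lowest positive value, log2 was taken, and arrays were scaled by the 75th percentile of those probes that every array flagged as well above background. Spots of a probe were averaged without control and outlier spots, and the probe of highest mean stood for its miRNA. Tests covered the 80 miRNAs detected on 3 or more arrays, or the 90 detected on 2 or more bright arrays. They used limma 3.58.1 (lmFit, eBayes, R 4.3.3, data.table version 1.17.8) and Benjamini-Hochberg adjustment at 0.05. The fit of all 6 arrays had terms for line and fraction and 2 residual degrees of freedom. The fit of the bright arrays had a term for fraction but none for line, and 1 residual degree of freedom. The line pairs the samples, since both fractions were sorted from it. The pipeline was tested on simulated data with large differences and less noise than miR-21 showed between lines. That checks the code and does not measure the power of these arrays. The number of arrays limits the precision. The named miRNAs were miR-21, those that share its seed, the 3 most and 1 least like it, the 3 next brightest per array and the brightest members of the lists. Those sharing probe bases, the absent defining markers and miR-34a were added after their values were seen. miR-21, the lists, the limit for bright arrays and the alternatives were chosen with earlier results of these data known. The fit without miR-21 probes and the value-table assignment are alternatives, as are the other backgrounds, scalings, filters and left-out arrays.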

Additional observations from a re-analysis of the deposited data

Results flagged for a closer look

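The difference of miR-21 between Sca1+ and Sca1- cells had one sign in CMT-U27 (0.63) and the other in CMT-U309 (-1.54) and P114 (-3.23) by scanner file. It stands here because Sca1+ was the higher fraction in one line and the lower one in the others. With 1 pair per line the difference between lines was not tested. By value table the same lines gave -2.92 in CMT-U27, -0.14 in CMT-U309 and -1.36 in P114, all below 0.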

How the results depend on the processing

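For Sca1+ over Sca1- within lines, 22 of 23 alternatives kept the negative sign of miR-21 (-1.38) and none passed (limma, lowest adjusted p 0.659). These alternatives are not independent. The floor at the detection limit and the other filters left the estimate at exactly -1.38 and say nothing about its sign. Quantile scaling gave 0.52, a value that rests on D2 alone. Leaving out 1 array gave -2.38 to -0.45, with the same value for either array of a line, since its pair is lost. Under any of the 23, 0 miRNAs passed. Without the line as a replicate block the difference stayed -1.38, since the pairs are balanced, and the call did not change. For CMT-U309 over CMT-U27 (2.47), scaling over all probes gave -0.21, and the value-table assignment gave -2.02, -1.34 by hur features, -5.66 by dmr features and -3.30 without miR-21 probes, with 14, 7, 28 and 22 miRNAs past the threshold in place of 0. Leaving out 1 array gave 0.96 to 3.98 for miR-21 and 0 to 5 calls (5 without either P114 array), and total gene signal gave 1 call. For P114 over CMT-U27 (1.44), leaving out 1 array gave -0.064 (without D2) to 2.95, and total gene signal gave 1 call. For P114 over CMT-U309 (-1.03), scaling over all probes gave 0.36 and quantile scaling 0, the latter by construction. The value-table assignment gave 2.62, 2.39 by hur features, 8.04 by dmr features (adjusted p = 0.0219 with limma, bright arrays against dim ones) and 3.46 without miR-21 probes, with 24, 18, 57 and 31 calls. Leaving out 1 array gave -2.42 to 0.36 (without D3). On the bright arrays miR-21 (-1.15) passed in 3 of the 12 alternatives that had a test. These were -1.32 without its own probes in the scaling, -1.55 with normexp background and -1.92 by hur features. By the hur features, chosen after the data were seen, the median of all tested miRNAs also fell, to -0.59. The miR-21 difference was 0 with quantile scaling. These tests have 1 Sca1+ array with no spread of its own, and their spread comes from B2 and B3 alone. Calls there were 4, against 11 over all probes, 16 without miR-21 probes, 0 by quantile scaling, 54 with normexp, 11 with a floor at the detection limit, 2 by the mean of probes, 0 without a filter, 8 among miRNAs detected on all 3 arrays, 10 by hur and 15 by dmr features. Leaving out B2 or B3 gave -1.33 and -0.98, with no test. The causes were not tested. The share of miR-21 (-11.6 points) stayed below 0 in all 9 alternatives, from -22.9 to -4.0. On D2 the shorter miR-21 probe overlapped the brightest negative-control spot and on D3 it lay just above it, which limits differences that rest on them.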
